A study of Mus musculus with 2 samples.

Results

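Cells rich in transcripts of complement factor B (Cfb) and of the chemokine Cxcl9, but with little or no C1q, were examined in single-cell RNA sequencing of immune cells infiltrating the gingiva of C57BL/6 mice. The cells were chosen by their own UMI counts (unique molecular identifiers, one per captured transcript). A cell was counted when at least 200 genes were detected, at most 15% of its UMIs were mitochondrial, Cfb and Cxcl9 together had at least 5 UMIs, C1qa, C1qb and C1qc together had at most 2, Fscn1, Ccl22 and Cacnb3 together had at most 4, and S100a8 and S100a9 made up less than 1% of its UMIs. The rule was met by 88 of 6936 kept cells in the library labelled Otud1-/- and by 142 of 12769 in the wild-type (WT) library, which gave 230 of 19705 in all. The study concerns mice lacking Otud1, which encodes a deubiquitinase, and WT mice, in the setting of experimental periodontitis. Each genotype is represented by 1 droplet library of gingival cells. The number of animals behind each library, their age and sex, and the timing of the periodontitis model are not given in the sources used here. With 1 library per genotype there is no replicate check: differences between the libraries are descriptions of those libraries, no test is given, and the intervals below are exact 95% intervals that cover counting error only.

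Interferon-gamma from T cells and natural killer (NK) cells acts on a set of genes that is shared by many cell types. Macrophages and monocytes respond with guanylate-binding proteins and immunity-related GTPases, which attack vacuoles of intracellular microbes, with Cxcl9 and Cxcl10, which draw T cells through Cxcr3, and with antigen presentation genes. Factor B is the protease-bearing component of the alternative complement pathway, made by macrophages, fibroblasts and epithelium in inflamed tissue, whereas C1q, which starts the classical pathway, is a hallmark of tissue macrophages. Cxcl9 and Cfb are therefore marks of a response and not of a lineage, and the lineage of the cells was read from other genes.

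The libraries held 8109 barcodes and 44083735 UMIs under the label Otud1-/-, and 13267 barcodes and 44878537 UMIs under WT, so that the median barcode had 3716 UMIs in the library labelled Otud1-/- and 2241 in WT. Otud1 itself checks the label and goes against it: 1456 UMIs (33.0 CPM, counts per 1000000 UMIs of the library or cell group) were found in the library labelled Otud1-/- and 834 (18.6 CPM) in WT, and the cells described here had 31 Otud1 UMIs (28.5 CPM) in the library labelled Otud1-/- and 16 (19.3 CPM) in WT. The stretch of Otud1 that was deleted is not given in the sources used here, so reads from a remaining end of the transcript cannot be told apart from an intact one. The sex-linked transcripts of the cells also differed. Xist was found in 0 of the 88 cells of the library labelled Otud1-/- and in 87 of the 142 WT cells, and a Y-linked transcript in 69 and 40 of them, with both in 0 and 23. The libraries shared 37 barcodes, of which 0 belonged to these cells in the library labelled Otud1-/- and 1 in WT.

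The 4 genes that name the population are encoded on different chromosomes of the mm10 genome. Cfb (ENSMUSG00000090231) lies at chr17:34856374-34862518 on the minus strand, Cxcl9 (ENSMUSG00000029417) at chr5:92321347-92328079 on the minus strand, Gbp2 (ENSMUSG00000028270), a guanylate-binding protein, at chr3:142620602-142638008 on the plus strand, and Ly6i (ENSMUSG00000022586), a small membrane-anchored protein of the Ly6 family, at chr15:74979534-74983430 on the minus strand. The 250 bases before the RefSeq start (build GRCm38.p6) are shown for Gbp2 and Cxcl9. They run 5′ to 3′ along the gene's strand, with a match of the interferon-stimulated response element in capitals. They span chr3:142620413-142620662 for Gbp2 and chr5:92328080-92328329 for Cxcl9. The reference used here held no window for Cfb or Ly6i. The Gbp2 window ends inside the gene span given above, and its match lies inside that span.
Gbp2: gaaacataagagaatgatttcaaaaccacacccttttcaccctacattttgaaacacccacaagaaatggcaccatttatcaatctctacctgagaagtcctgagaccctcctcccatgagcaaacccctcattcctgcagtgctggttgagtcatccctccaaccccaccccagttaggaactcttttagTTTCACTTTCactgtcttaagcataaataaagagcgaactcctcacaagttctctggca
Cxcl9: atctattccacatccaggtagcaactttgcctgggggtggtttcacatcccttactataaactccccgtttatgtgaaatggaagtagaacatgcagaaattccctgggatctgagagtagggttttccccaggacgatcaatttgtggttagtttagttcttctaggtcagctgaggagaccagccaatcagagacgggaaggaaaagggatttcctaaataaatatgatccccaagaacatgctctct
2 patterns were searched on both strands, the interferon-stimulated response element, taken as 2 copies of GAAA with 2 bases between them, and TTCNNNGAA, the gamma-activated site. The Gbp2 window held 1 match of the first pattern, on the minus strand, 59 to 50 bases before the start, and none of the second. The Cxcl9 window held neither, which says only that these letters are not in these 250 bases. Of 32851 mouse promoter windows of the same length, 978 (2.98%) held the first pattern and 2306 (7.02%) held the second.

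The values that chose the cells are given as a description. Cxcl9 stood at 3385 CPM in the chosen cells of the library labelled Otud1-/- and 2923 CPM in those of WT, against 70.7 and 86.6 CPM in the remaining kept cells. Cfb stood at 544.7 and 357.8 CPM, against 18.53 and 30.01 CPM in the remaining cells. Cxcl9 dominated the rule: the median cell held 18.5 Cxcl9 UMIs in the library labelled Otud1-/- and 7.5 in WT, and 4 Cfb UMIs against 1. Both genes were found in 65 of 88 cells and 74 of 142 cells, Cxcl9 alone in 19 and 66, and Cfb alone in 4 and 2. These few cells carried 55.5% of all Cxcl9 UMIs of the kept cells in the library labelled Otud1-/- and 39.3% in WT, and 43.4% and 18.6% of all Cfb UMIs. Of the 2 further genes that name the population, Gbp2 was found in 93.2% of the cells of the library labelled Otud1-/- and 66.9% in WT, while Ly6i had no UMI in 22 of 88 cells of the library labelled Otud1-/- and 78 of 142 in WT, and had a median of 2 UMIs per cell in the library labelled Otud1-/- and 0 in WT. T cells had a Gbp2 UMI in 19.1% and 23.7% and a Ly6i UMI in 4.08% and 9.05% of cells. Whether these UMIs were their own or free RNA from other cells was not tested. The T cells had a median depth of 5961 and 5364 UMIs, against 10376 and 4206 UMIs in the cells described.

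The threshold on C1q cut through little in the library labelled Otud1-/- and through more in WT. Among cells that met every other criterion, 82, 5 and 1 had 0, 1 and 2 C1q UMIs in the library labelled Otud1-/-, none had 3, and 35 had 10 or more. In WT 112, 24 and 6 cells had 0, 1 and 2, then 5 had 3 UMIs and 109 had 10 or more. At the lower edge of the Cfb and Cxcl9 sum, 6 cells in the library labelled Otud1-/- and 20 in WT stood just outside at 4 UMIs, and 9 and 25 just inside at 5.

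The cells were not of 1 lineage. Each was placed in a class by how many different markers of a cell type it expressed, with the genes of the selection left out: at least 3 of 6 for fibroblasts, at least 4 for B or T cells, and otherwise the myeloid, dendritic or NK list with most markers, at least 3. This class rule was written after the mixture had been seen, and genes on the lists that place a cell describe the class and do not test it. The monocyte/macrophage class was the most common, with 46 cells in the library labelled Otud1-/- (52.3%, interval 41.4 to 63.0%) and 47 in WT (33.1%, 25.4 to 41.5%). Cells with B cell markers numbered 10 and 25, with T cell markers 9 and 8, and with both 7 and 10. Fibroblast markers placed 7 cells (7.95%) and 6 cells (4.23%). Type 1 dendritic cells numbered 1 and 5, type 2 dendritic cells 3 and 2, mature dendritic cells 1 and 1, and plasmacytoid dendritic cells 0 and 4, while neutrophil markers placed 2 and 0 cells and NK markers 0 and 1. The remaining 2 cells of the library labelled Otud1-/- and 33 of WT (23.2%) reached no class. In the monocyte/macrophage class 2 and 10 cells led the next list by only 1 marker. At the minimum number of markers stood 1 of 7 and 0 of 6 fibroblasts, and 2 of 26 and 14 of 43 cells with B or T markers.

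**Figure D1:**
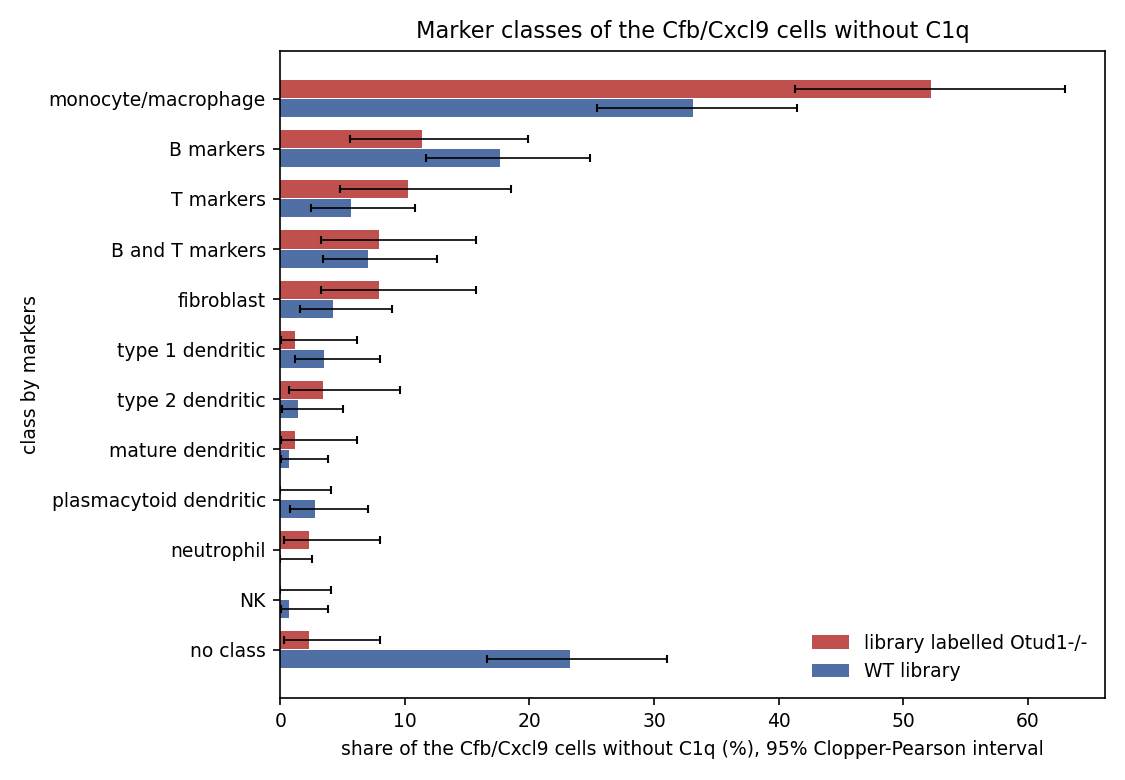
Share of the Cfb and Cxcl9 cells without C1q in each marker class, in percent (horizontal axis), with the library labelled Otud1-/- above WT in each pair and 95% Clopper-Pearson intervals as whiskers. The monocyte/macrophage class leads in both libraries, at 52.3% and 33.1%, and the class-less share is 2.27% and 23.2%.

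Depth bears on these shares. When each cell was thinned to 1000 UMIs, which left out 4 WT cells, the monocyte/macrophage class held 51 of 88 cells (58.0%) in the library labelled Otud1-/- and 38 of 138 (27.5%) in WT, and fibroblasts 5 and 6 cells. B markers then placed 1 and 4 cells, T markers 1 and 2 and both together 0 and 0, and 26 and 77 cells had no class. A doublet score against simulated pairs of cells marked 8 of the cells in the library labelled Otud1-/- (9.09%) and 23 in WT (16.2%), against 6.49% and 10.6% of all kept cells. These doublet calls fell on 7 of the 26 and 18 of the 43 cells with B or T markers, on 0 and 3 of the monocyte/macrophage class, and on none of the fibroblasts.

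The monocyte/macrophage class carried genes of both cell types. The list of 10 monocyte genes summed to 13455 CPM in the library labelled Otud1-/- and 7695 CPM in WT, against 7819 and 7781 CPM in the monocytes without Cfb or Cxcl9 UMIs that are described further on. The list of 9 macrophage genes summed to 1946 and 3300 CPM, against 1846 and 1155 CPM in those monocytes. In the library labelled Otud1-/- this sum was thus close to that of the monocytes. At least 3 markers of the list were found in 80.4% and 66.0% of the class, against 57.6% and 25.4% of those monocytes. In the C1q-positive cells described further on, of mixed classes, the list summed to 4101 and 3713 CPM, and these shares were 91.4% and 82.6%. The rule left out cells with more than 2 C1q UMIs and so bears on macrophage genes. Lyz2, lysozyme, which is on none of the lists, stood at 14085 CPM in the library labelled Otud1-/- and 8577 CPM in WT. Ly6c2, the surface mark of classical monocytes, stood at 3523 and 1191 CPM, Plac8 at 7269 and 4316 CPM, and Ccr2, the receptor that brings monocytes from blood, at 894 and 799 CPM. Csf1r, the receptor of the macrophage growth factor, stood at 252 and 494 CPM. Mertk, a receptor for the uptake of dead cells in resident macrophages, had 0 UMIs in both libraries. Apoe, abundant in tissue macrophages, stood at 714 and 1911 CPM, and the nonclassical monocyte genes Ace and Treml4 at 14.4 and 16.8 CPM in the library labelled Otud1-/- against 111 and 125 CPM in WT. At least 3 nonclassical monocyte markers were found in 8.70% and 27.7% of the class. Of the lists of other cell types, the median cell had 0 and 1 UMIs of the B cell list, 0 and 0 of the T cell list, 0 and 0 of the fibroblast list and 1 and 0 of the type 2 dendritic list, while the monocyte list had a median of 137.5 and 17 UMIs. The neutrophil list had a median of 2 and 0 UMIs, the plasmacytoid dendritic list 6 and 1 UMIs, with up to 32 and 17, and the type 1 dendritic list 7 and 1 UMIs. The type 1 dendritic gene Naaa stood at 810 and 180 CPM, while the defining receptor gene Xcr1 had 1 and 0 UMIs.

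**Figure D2:**
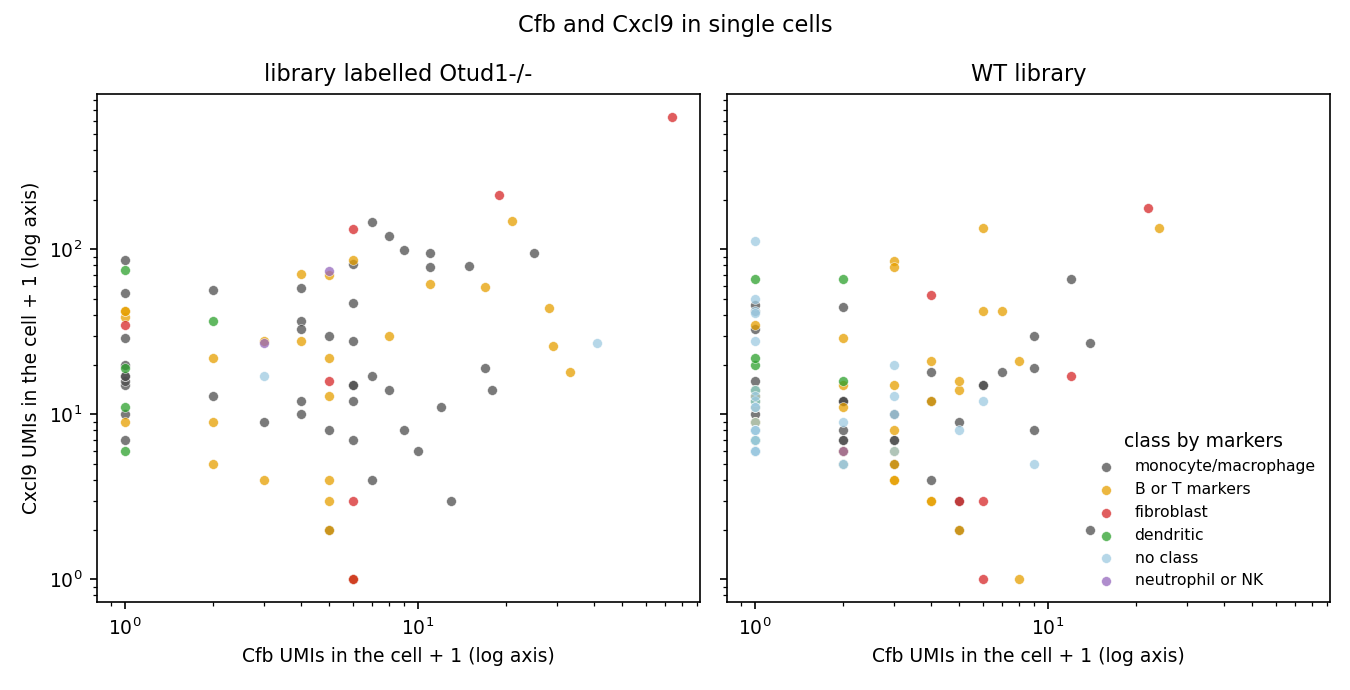
UMIs of Cfb (horizontal) and Cxcl9 (vertical) in each cell, both plus 1 on log axes, for the library labelled Otud1-/- (left) and WT (right), coloured by marker class. Dendritic cells stand at the left edge with 0 or 1 Cfb UMIs, and the cell with most of both, 73 Cfb and 636 Cxcl9 UMIs, is a fibroblast of the library labelled Otud1-/-.

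Within the class, cells varied widely. Cxcl9 was missing from 2 cells of the library labelled Otud1-/- and from none in WT and reached 146 and 65 UMIs, and Cfb was missing from 10 and 17 cells and reached 24 and 13 UMIs. Per 10000 UMIs of a cell, the median Gbp2 level was 25.5 in the library labelled Otud1-/- and 6.36 in WT, with quartiles of 12.8 and 37.2 against 0 and 9.25. The median Cxcl9 level on that scale was 17.3 and 38.4, an order opposite to that of the summed counts (3619 and 2737 CPM); the minimum of 5 UMIs is a larger fraction of a shallower cell, and the class had a median of 9272.5 and 3546 UMIs. Cxcl10 was found in 17 of 46 and 19 of 47 cells, and its highest cell held 22.2% and 22.9% of all its UMIs.

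The dendritic cells, 5 in the library labelled Otud1-/- and 12 in WT, entered through Cxcl9 and not through Cfb. Cxcl9 stood at 2159 and 2153 CPM, whereas Cfb had 1 and 2 UMIs (15.1 and 18.1 CPM). Cst3, a protease inhibitor abundant in dendritic cells, stood at 12940 and 10700 CPM, against 2303 and 1671 CPM in the monocyte/macrophage class, and Cd74, the invariant chain of major histocompatibility complex (MHC) class II, at 19855 and 17130 CPM against 5735 and 11102 CPM. Flt3, the dendritic growth factor receptor, had 10 and 9 UMIs, and Xcr1, the chemokine receptor of type 1 dendritic cells, 11 and 12 UMIs. Gbp2 stood at 423 and 109 CPM. Il12b, the shared chain of interleukins that steer T cells, had 74 UMIs in the library labelled Otud1-/-, all in 1 cell, and 13 in WT, in 2 cells.

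The fibroblasts, 7 and 6 cells, held the highest levels of both chosen genes. Cxcl9 stood at 14445 CPM in the library labelled Otud1-/- and 5035 CPM in WT, Cfb at 1544 and 995 CPM, and Cxcl10 at 6191 and 1035 CPM. Cxcl9 counts of the single cells were 0, 2, 15, 34, 131, 211 and 636 UMIs in the library labelled Otud1-/- and 0, 2, 2, 16, 52 and 176 in WT, so the highest cell supplied 61.8% and 71.0% of the sums. Dcn, the matrix proteoglycan decorin, stood at 7005 and 23186 CPM, and the collagen genes Col1a1 at 1909 and 4467 CPM and Col3a1 at 4183 and 5746 CPM. Ptprc, which encodes the leukocyte mark CD45, had 8 and 1 UMIs, against 899 and 1112 CPM in the monocyte/macrophage class. Lyz2 was at 0 or 1 UMI in every fibroblast except 2 of the library labelled Otud1-/-, which held 130 and 100 UMIs together with 211 and 131 Cxcl9 UMIs.

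The complement genes of the fibroblasts covered several arms of the cascade. C3, the hub of all pathways, stood at 4970 CPM in the library labelled Otud1-/- and 3594 CPM in WT, C1s1 at 1320 and 2314 CPM and C1ra at 814 and 995 CPM, both proteases of the C1 complex, C4b at 842 and 1360 CPM, and the C1 inhibitor gene Serping1 at 2274 and 3573 CPM. In the monocyte/macrophage class C3 stood at 328 and 383 CPM, C1s1 had no UMIs, and Serping1 had 1 and 0 UMIs. The other fibroblasts among the kept cells, 12 and 32 cells with a median of 7793.5 and 2653 UMIs, had Cfb at 27.8 and 135 CPM, Cxcl9 at 61.2 and 282 CPM and C3 at 417 and 623 CPM. Their Dcn stood at 2793 and 5186 CPM and their Ptprc at 584 and 635 CPM, so that leukocyte transcripts were more abundant in them. Of all kept fibroblasts, 7 of 19 (36.8%, interval 16.3 to 61.6%) and 6 of 38 (15.8%, 6.02 to 31.3%) met the rule. Cxcl12, a stromal chemokine, stood at 2218 and 528 CPM in the fibroblasts that met it and at 312 and 159 CPM in the others. The GTPase gene Iigp1 stood at 1699 and 1137 CPM, while Ly6i, one of the 4 naming genes, had 2 and 0 UMIs.

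Cells with B or T cell markers, 26 in the library labelled Otud1-/- and 43 in WT, carried monocyte transcripts as well. Lyz2 stood at 6230 CPM in them in the library labelled Otud1-/-, against 1205 CPM in the other kept cells of these classes. In WT Lyz2 was alike in both, at 1284 and 1279 CPM. Ly6c2 stood at 1682 and 597 CPM in the cells that met the rule, against 158 and 234 CPM in the others. The monocyte list had a median of 132 UMIs per cell in the library labelled Otud1-/-, close to the 137.5 of the monocyte/macrophage class, and 12 UMIs in WT, where that class had 17. Cd79a, the B cell receptor's signalling chain, stood at 429 and 455 CPM, against 1347 and 922 CPM in the other cells of these classes, and Cd3e, of the T cell receptor complex, at 71.8 and 108 CPM against 63.7 and 120 CPM. These cells were deep, with medians of 13248 and 5008 UMIs for B markers, 16507 and 4305 for T markers and 22911 and 6760 for both, against 4460 and 3215 UMIs in the other kept cells of these classes. Whether they are doublets or cells with free RNA was not tested beyond the doublet calls given above. Only 10 of 3531 and 25 of 4339 cells with B markers met the rule.

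**Figure D3:**
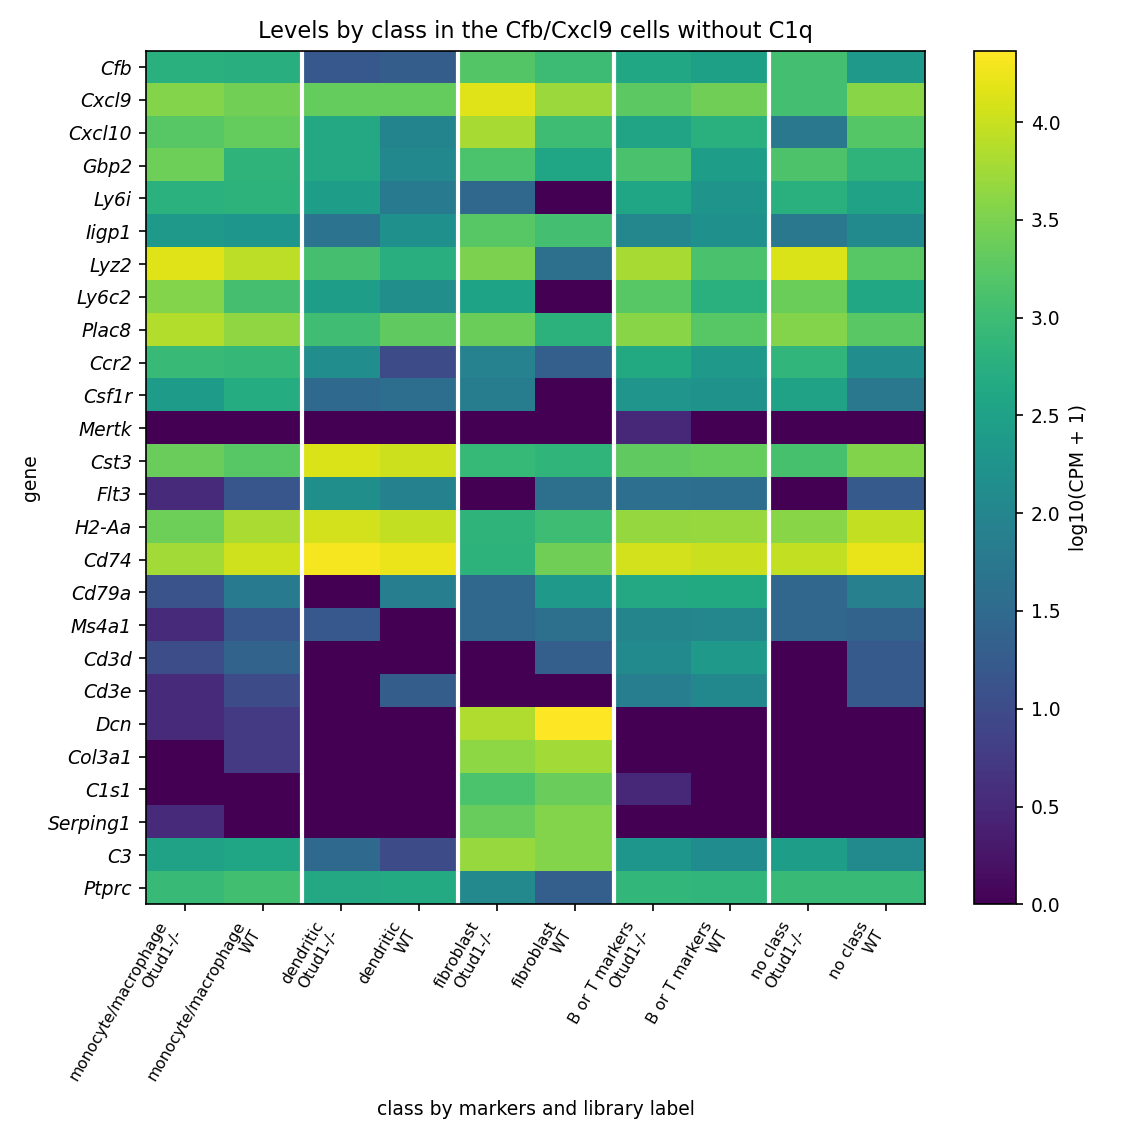
Levels of response, lineage and complement genes (rows) in 5 class groups of the cells, with the library labelled Otud1-/- left of WT in each pair; colour is log10(CPM + 1). Lyz2 and Ly6c2 peak in the monocyte/macrophage class, Cst3 and Cd74 in dendritic cells and Dcn, C1s1, Serping1 and C3 in fibroblasts, while Cxcl9 is above 1000 CPM in every column.

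The 33 WT cells without a class had a median of 3665 UMIs, close to the 3546 of the WT monocyte/macrophage class. Cd74 stood at 16925 CPM and H2-Ab1 at 9249 CPM, beside 17130 and 10229 CPM in the WT dendritic cells, and Cst3 at 3471 CPM, between those of the dendritic and monocyte/macrophage classes. Their Cxcl9 stood at 3878 CPM, their Cfb at 223 CPM, and their Lyz2 at 1716 CPM. The 2 such cells of the library labelled Otud1-/- had Lyz2 at 13209 CPM and Cfb at 1134 CPM. The median cell of the WT group had 5 UMIs of the monocyte list, 2 of the macrophage list and 1 each of the type 2 dendritic and B cell lists.

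As a share of kept cells, the population made up 1.27% (interval 1.02 to 1.56%) in the library labelled Otud1-/- and 1.11% (0.937 to 1.31%) in WT, a difference of 0.157 percentage points whose counting interval, -0.162 to 0.497, included 0. The sign varied with the setting, but every negative difference had an interval that included 0. At full depth a minimum of 3 Cfb and Cxcl9 UMIs gave 1.54% and 1.62% (interval of the difference -0.441 to 0.304). A minimum of 10 gave 1.02% and 0.533% (0.226 to 0.782). With 0 C1q UMIs the difference was 0.305 (0.006 to 0.628), and at most 5% mitochondrial UMIs 0.627 (0.152 to 1.14). Thinning to 1000 UMIs came with limits changed to a minimum of 2 Cfb and Cxcl9 UMIs and no C1q. The shares were then 1.04% and 1.25% (-0.524 to 0.130). After thinning to 2000 UMIs with the limits kept, they were 0.846% and 0.855% (-0.330 to 0.320). Thinning to 1000 UMIs left out 295 and 1283 shallower cells, and thinning to 2000 UMIs 791 and 5520. The picture differed within the monocyte/macrophage class, where 46 of 407 cells (11.3%, 8.39 to 14.8%) in the library labelled Otud1-/- and 47 of 1499 (3.14%, 2.31 to 4.15%) in WT met the rule. With cells thinned to 1000 UMIs these shares were 10.3% of 387 and 3.85% of 1377 cells, and at 2000 UMIs 7.67% of 365 and 2.17% of 782 cells, with the class assigned at full depth and 20 and 122 cells left out at 1000 UMIs and 42 and 717 at 2000. This comparison was added after the mixture of lineages had been seen.

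Monocytes of the same library without any Cfb or Cxcl9 UMI were used for comparison, 205 cells and 461 cells. They had at least 6 UMIs of Ly6c2, Vcan, F13a1 and Ccr2. At least 3 plasmacytoid dendritic markers were found in 19.5% of them in the library labelled Otud1-/- and 39.9% in WT. In the monocyte/macrophage class these shares were 0% and 2.13%. The part of such cells in the comparisons with monocytes was not tested. Against these monocytes, the monocyte/macrophage class had higher levels of interferon-inducible genes. A gene counted as measured with a mean level of at least 50 CPM and at least 20 UMIs in the higher group, and a ratio of 2-fold or more was called. In the library labelled Otud1-/- 201 of 2737 such genes (7.34%) passed upward and 119 (4.35%) downward, and in WT 250 of 2304 (10.9%) upward and 154 (6.68%) downward. In both libraries 77 genes were higher and 43 lower, out of 2128 measured in both. All measured guanylate-binding proteins and immunity-related GTPases passed 2-fold upward, 10 of 10 in the library labelled Otud1-/- and 7 of 7 in WT, with a median log2 ratio of 3.01 and 2.41 beside 0.10 and -0.01 over all genes. The list has 17 genes, and the others were below the minimum level. Cxcl9 is itself an interferon-gamma response gene. The class was chosen for Cfb and Cxcl9 UMIs and the monocytes for having none. Higher levels of genes of the same response therefore describe the chosen cells and do not test them.

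Single genes of the response showed the size of the difference. Gbp2 stood at 2476 CPM in the class and 58.3 CPM in monocytes of the library labelled Otud1-/- (log2 ratio 5.40), and at 683 and 59.2 CPM in WT (3.52). Ly6i stood at 606 and 28.1 CPM in the library labelled Otud1-/- (4.41) and 665 and 50.6 CPM in WT (3.70). Both belong to the genes that name the population, so their excess is a description. Iigp1, which attacks microbial vacuoles, stood at 220 and 8.98 CPM in the library labelled Otud1-/- (4.54) and at 198 and 31.7 CPM in WT (2.63). Gbp5 had log2 ratios of 2.41 and 2.79 and Gbp7 of 2.43 and 2.41. Of the other interferon-gamma response genes, 15 of 16 measured in the library labelled Otud1-/- and 13 of 13 in WT were at least 2-fold higher. Calhm6 had log2 ratios of 3.40 and 3.25, the activating antibody receptor Fcgr4 3.72 and 3.17, Slamf8 2.96 and 2.95, Irf1 2.23 and 1.71, and Cd274, which encodes the checkpoint ligand PD-L1, 2.47 and 1.82. Cxcl10 stood at 1706 and 343 CPM in the library labelled Otud1-/- and 2119 and 115 CPM in WT. Ido1, an interferon-induced enzyme in many human myeloid cells, had no UMIs in the class in either library.

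**Figure D4:**
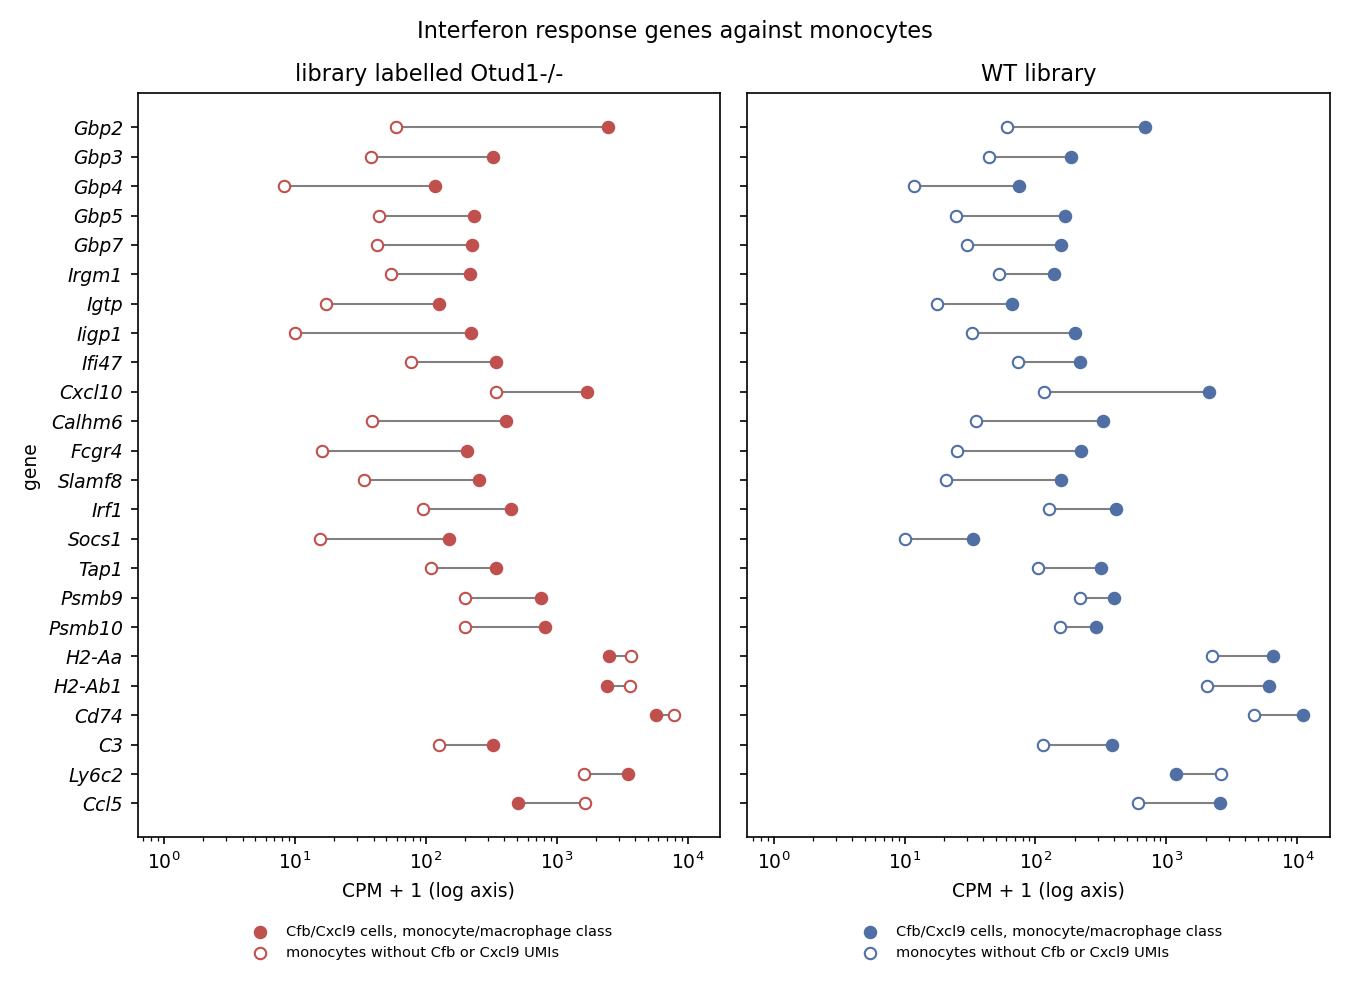
CPM plus 1 on a log axis for response and antigen presentation genes in the monocyte/macrophage class of the Cfb and Cxcl9 cells (filled) and in monocytes without either transcript (open), for the library labelled Otud1-/- (left) and WT (right). Guanylate-binding proteins lie far to the right of the monocytes in both, whereas H2-Aa, H2-Ab1, Cd74 and Ccl5 lie left of them in the library labelled Otud1-/- and right of them in WT.

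Of 17 measured MHC class I genes, 9 in the library labelled Otud1-/- and 3 in WT were at least 2-fold higher and none lower. Their median log2 ratios were 1.36 and 0.62. Over all genes of this comparison 7.34% and 10.9% were higher, with medians of 0.10 and -0.01. The 3 genes in WT were not far above that share, which also bears on the class II counts below. Tap1, a peptide transporter, had log2 ratios of 1.66 and 1.59, and Psme2, of the proteasome activator, 1.96 and 1.04. Over the MHC class II list, 1 of 8 measured genes was 2-fold higher and 0 lower in the library labelled Otud1-/-, with a median log2 ratio of -0.03, and 8 of 10 were higher and 0 lower in WT, with a median of 1.31. H2-Aa stood at 2492 CPM in the class and 3704 CPM in monocytes of the library labelled Otud1-/- (log2 ratio -0.57), and at 6555 and 2239 CPM in WT (1.55). H2-Ab1 had log2 ratios of -0.56 and 1.57 and Cd74 of -0.47 and 1.25. The negative ratios of these 3 genes stayed within 2-fold, and the difference between the libraries was not tested. The monocytes used as comparison also carried genes of other cells: Siglech, of plasmacytoid dendritic cells, stood at 2.40 CPM in the class and 426 CPM in monocytes of the library labelled Otud1-/- and 4.62 and 713 CPM in WT, and Gzma, a granzyme, at 2.40 and 728 CPM and 4.62 and 128 CPM. The part of those cells in the class II levels was not tested.

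All 5 measured inflammatory cytokine genes were at least 2-fold higher than in monocytes in WT, with a median log2 ratio of 1.95. In the library labelled Otud1-/- this held for 1 of 5, with a median of 0.51. Over all genes of this comparison 10.9% were higher in WT and 7.34% in the library labelled Otud1-/-, with medians of -0.01 and 0.10. Among 5 genes, 1 call cannot be told apart from that share. The difference between the libraries was not tested. Il1b, the pyrogenic cytokine, stood at 2929 CPM in the class and 2794 CPM in monocytes of the library labelled Otud1-/-, and at 4270 and 1418 CPM in WT. Tnf stood at 120 and 103 CPM in the library labelled Otud1-/- and 258 and 34.4 CPM in WT. C3 was higher in both, with log2 ratios of 1.40 and 1.75, and Ass1, of the arginine cycle, with 2.09 and 2.44. Nos2, the inducible nitric oxide synthase, had few UMIs, at 7.19 and 92.3 CPM in the class.

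Taking all the chosen cells and not the class alone, monocytes were exceeded at 2-fold by 136 of 2753 genes (4.94%) in the library labelled Otud1-/- and 138 of 2771 (4.98%) in WT, with 74 (2.69%) and 107 (3.86%) lower. Of these, 63 were higher and 33 lower in both libraries. After Cxcl9 and Cfb the list was led by Serping1, Dcn, Mgp and Sparc, genes of the 7 and 6 fibroblasts, and by Gbp2 and Iigp1. Against type 2 dendritic cells (105 and 56 cells), 248 of 2639 genes (9.4%) and 192 of 2652 (7.24%) were higher and 81 (3.07%) and 92 (3.47%) lower. Cd209a, which with Clec10a defined those cells, stood at 45.9 CPM in the chosen cells and 996 CPM in the dendritic cells of the library labelled Otud1-/-, and at 101 and 1206 CPM in WT. Mgl2, another lectin gene, which the definition did not use, stood at 61.5 and 187 CPM and at 85.8 and 516 CPM.

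The comparison closest in its limits was with cells that met the same limits but had at least 10 C1q UMIs. These were 35 cells in the library labelled Otud1-/- and 109 in WT, with medians of 16033 and 6105 UMIs. They were also of mixed classes. B cell markers placed 10 and 25 of them, T cell markers 8 and 20, and both 3 and 27. The monocyte/macrophage class held only 7 and 25 of them. Few genes differed: 40 of 2772 (1.44%) were 2-fold higher and 35 (1.26%) lower in the library labelled Otud1-/-, and 52 of 2832 (1.84%) higher and 51 (1.8%) lower in WT, with 14 higher and 10 lower in both of 2537. The genes with the largest ratios upward were fibroblast markers. Dcn stood at 459 CPM in the C1q-free cells and 0 CPM in the C1q-positive cells of the library labelled Otud1-/-, and at 1382 and 2.54 CPM in WT, and Col1a2 and Serping1 had no UMIs in the C1q-positive cells of either library. Of the guanylate-binding protein and GTPase genes, 0 of 11 measured in the library labelled Otud1-/- and 0 of 9 in WT passed 2-fold in either direction. Their median log2 ratios were 0.47 and 0.33, beside -0.001 and -0.007 over all genes. With so few genes passing over all, these counts say little about the list. The same minimum of Cfb and Cxcl9 UMIs chose both sets of cells, so likeness in this response is a description. Downward, beyond the C1q genes of the rule, stood the macrophage gene Apoe, at 555 and 3051 CPM in the library labelled Otud1-/- and 957 and 2534 CPM in WT, and the monocyte-attracting chemokines Ccl7, at 52.4 and 187 CPM and at 31.4 and 153 CPM, and Ccl12, with log2 ratios of -2.10 and -1.81.

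Within the monocyte/macrophage class on both sides that comparison rested on 46 and 7 cells in the library labelled Otud1-/- and 47 and 25 in WT. There 183 of 1613 genes (11.3%) were higher and 20 (1.24%) lower in the library labelled Otud1-/-, and 136 of 1678 (8.1%) higher and 55 (3.28%) lower in WT, with 19 higher and 3 lower in both of 1190; the 3 were the C1q genes. The C1q-positive cells of the class held only 69353 UMIs in the library labelled Otud1-/- and 161762 in WT, so low levels in them rest on few UMIs. Hp, which encodes haptoglobin, the scavenger of free haemoglobin, stood at 218 and 28.8 CPM in the library labelled Otud1-/-. In WT it stood at 369 and 30.9 CPM. The intervals of its log2 ratios were 1.02 to 5.99 and 2.30 to 5.24. The interleukin-6 receptor gene Il6ra stood at 141 and 28.8 CPM (0.377 to 5.37) and at 134 and 49.4 CPM (0.272 to 2.78). Fcgr1, the high-affinity antibody receptor, had log2 ratios of -0.70 and -1.09, and H2-Eb1 of -1.20 and -0.67.

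Between the libraries, the chosen cells as a whole had 268 of 2811 measured genes (9.53%) higher by 1.5-fold or more in the library labelled Otud1-/- than in WT and 209 (7.44%) lower by that much, around a median log2 ratio of 0.04. The higher share of these calls, 56.2%, was 65.5% with trimmed-mean scaling (327 higher and 172 lower) and 69.5% with median-of-ratios scaling (358 and 157). Within the monocyte/macrophage class, 514 of 2359 genes (21.8%) were higher and 309 (13.1%) lower, around a median of 0.16. In sums over mixed cells, a different share of a class and a different level per cell cannot be told apart, and the class held 52.3% and 33.1% of the cells. The sex-linked transcripts moved with the library as well: among cells with a Y-linked and no Xist UMI, 69 and 17 cells, 573 genes were higher and 105 lower, of 1675 measured, around a median of 0.35.

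Over all chosen cells, and leaving out genes with over 25% of their UMIs in 1 cell, Lpl and Upp1 had the highest ratios, and Gbp2 and Ly6c2 stood among the leading 12. In the class, Qpct, with 68 and 1 UMIs (interval of the log2 ratio 2.62 to 10.5), and Selenom, with 91 and 2 UMIs (2.67 to 7.63), had higher ratios than either. Lpl, lipoprotein lipase, stood at 389 CPM in the library labelled Otud1-/- and 16.9 CPM in WT over all cells (log2 ratio 4.48, interval 3.76 to 5.41), and at 616 and 46.2 CPM in the class, where 26 of 46 and 7 of 47 cells had a UMI. Plin2, the coat protein of lipid droplets, stood at 147 and 24.2 CPM over all cells (2.58) and had a log2 ratio of 2.33 in the class. Upp1, a uridine phosphorylase, had 3.19 over all cells and 4.20 in the class, where WT had only 3 UMIs. Gbp2 stood at 1690 and 433 CPM over all cells (1.96, interval 1.80 to 2.13) and had 1.86 in the class. In the other kept cells of the monocyte/macrophage class Gbp2 stood at 260 CPM in the library labelled Otud1-/- and 110 CPM in WT. Il18bp, the decoy of interleukin-18, had 1.90 and 2.08, and Socs1, the brake on interferon signalling, 1.60 and 2.18. Ly6c2 stood at 2218 and 629 CPM over all cells (1.82) and had 1.56 in the class, and at 1213 and 891 CPM in the other cells of the class. S100a9 and S100a8, which the rule limits, had log2 ratios of 2.52 and 2.31. Among cells with a Y-linked and no Xist UMI the log2 ratios were 3.84 for Lpl, 1.91 for Plin2, 1.46 for Gbp2 and 2.64 for Ly6c2.

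**Figure D5:**
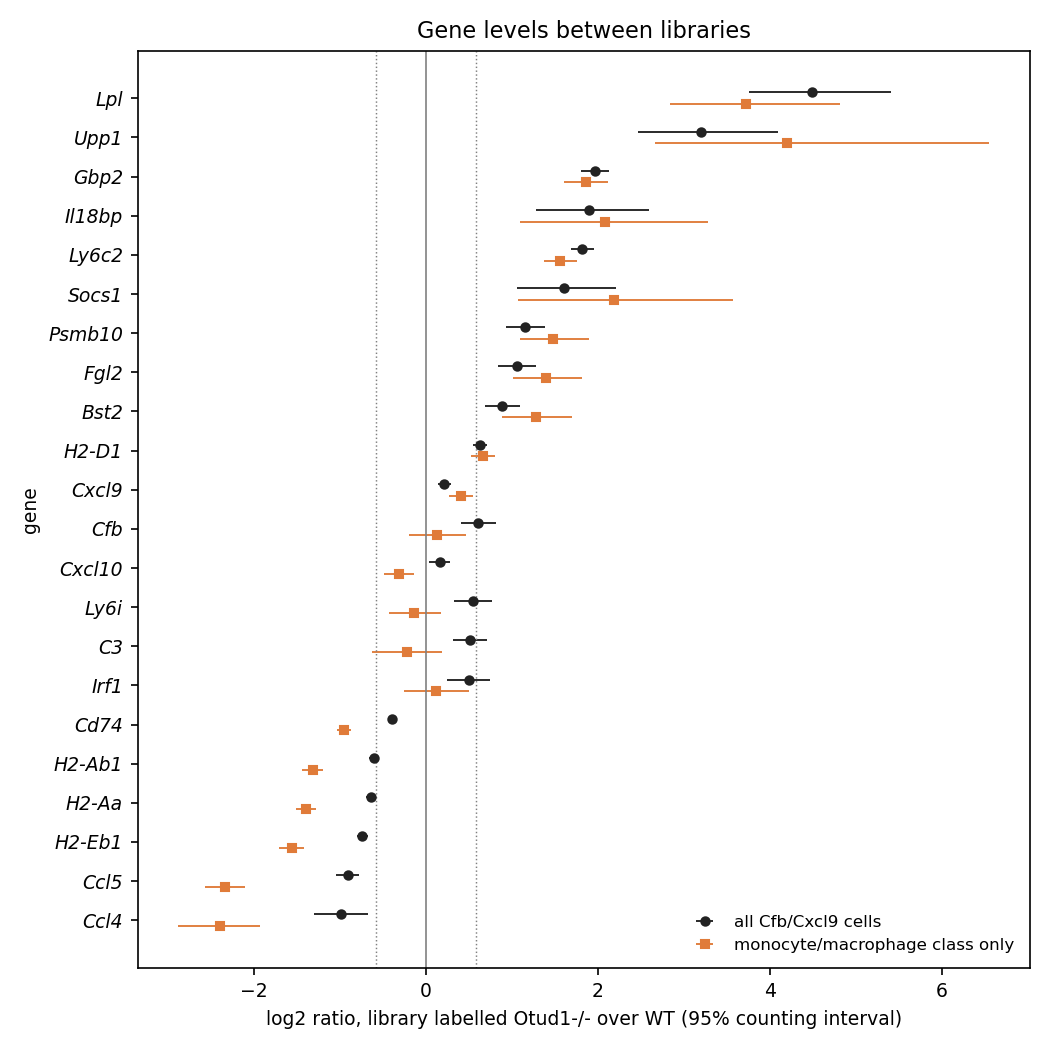
Log2 ratio of CPM, library labelled Otud1-/- over WT, for response, lineage and mediator genes, with 95% counting intervals, in all the Cfb and Cxcl9 cells (circles) and in their monocyte/macrophage class (squares); dotted lines mark 1.5-fold. Gbp2, Ly6c2 and Lpl lie right of the upper line in both sets, and the class II genes and Ccl5 lie further left in the class than in all cells.

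On the lower side over all cells were Pltp, a lipid transfer protein, at 33.1 CPM in the library labelled Otud1-/- and 110 CPM in WT (log2 ratio -1.72), Rgs1, a regulator of chemokine receptor signalling, at 130 and 417 CPM (-1.67), and Vegfa, the vascular growth factor, at 34.0 and 91.9 CPM (-1.42). In the class, Nr4a3, an immediate early transcription factor, stood at 64.7 and 291 CPM (-2.16), Spn, which encodes the nonclassical monocyte mark CD43, at 21.6 and 96.9 CPM (-2.14), and Ptgs2, the inducible cyclooxygenase, at 211 and 702 CPM (-1.73).

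The response genes did not all differ alike between the libraries. In the class 7 of 10 measured guanylate-binding protein and GTPase genes passed 1.5-fold upward in the library labelled Otud1-/- and 0 downward, with a median log2 ratio of 0.66 beside 0.16 over all genes; over all chosen cells these were 5 of 9 and 0, with 0.60 beside 0.04. Igtp stood at 125 and 64.6 CPM in the class (0.94) and Gbp3 at 326 and 185 CPM (0.82), while Iigp1, at 220 and 198 CPM (0.15), and Gbp5 (0.48) stayed within 1.5-fold. Of the other interferon-gamma response genes 6 of 18 were higher and 1 lower, with a median of 0.33. Irf1 (0.12), Tap1 (0.14) and Fcgr4 (-0.10) were within 1.5-fold, and so were Cxcl10 (-0.31) and Ly6i (-0.13). Cfb (0.13) and Cxcl9 (0.40) were within it too, but the same minimum of both chose the cells in each library. Their ratios are therefore a description. The median Cxcl9 level per 10000 UMIs of a cell ran the other way, at 17.3 in the library labelled Otud1-/- and 38.4 in WT. Of 17 class I presentation genes 8 were higher and 2 lower, led upward by the immunoproteasome gene Psmb10 at 812 and 291 CPM (1.48), with H2-Q6 (-1.46) and H2-Q7 (-1.26), which belong to a family of near-identical genes, lower. Of 23 type I interferon-stimulated genes, 7 were higher, among them Zbp1 at 757 and 300 CPM (1.33), and 3 lower, among them Ifi205 at 302 and 489 CPM (-0.70). Over all genes of the class 21.8% were higher and 13.1% lower, so the lower calls of this list were at that background and the higher calls not far above it.

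MHC class II genes stood lower in the library labelled Otud1-/-. In the class 5 of 9 measured genes of the list passed 1.5-fold downward and 1 upward, with a median log2 ratio of -0.94. Over all measured genes of the class, 13.1% passed downward and 21.8% upward. H2-Eb1 stood at 1630 CPM in the library labelled Otud1-/- and 4810 CPM in WT (-1.56, interval -1.70 to -1.42), H2-Aa at 2492 and 6555 CPM (-1.39), H2-Ab1 at 2442 and 6089 CPM (-1.32) and Cd74 at 5735 and 11102 CPM (-0.95). Ciita, the class II transactivator, stood at 55.1 and 106 CPM (-0.94). The exception was H2-DMa, of the peptide loading complex, at 999 and 531 CPM (0.91). The difference also showed in the quartiles over cells. Per 10000 UMIs the median H2-Aa level was 19.6 with quartiles of 5.18 and 29.6 in the library labelled Otud1-/-. In WT it was 57.4 with quartiles of 38.7 and 83.0. Monocyte and macrophage lists differed in the class too, so another mix of cells and another level per cell cannot be told apart. In the comparison monocytes H2-Aa stood higher in the library labelled Otud1-/- than in WT. In the other kept cells of the monocyte/macrophage class H2-Ab1 stood at 4593 and 5333 CPM. Over all chosen cells 4 of 12 class II genes were lower and 1 higher, with a median of -0.31. Of all genes measured there, 7.44% were lower and 9.53% higher.

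Of 12 measured chemokine genes, 5 passed 1.5-fold downward in the class, 1 passed upward and 6 passed in neither direction. Over all measured genes of the class, 13.1% passed downward and 21.8% upward, which bears on each count in these small lists. Of 5 measured inflammatory cytokine genes, 2 passed downward and 0 upward. Ccl5 stood at 510 CPM in the library labelled Otud1-/- and 2571 CPM in WT (log2 ratio -2.33) and Ccl4 at 127 and 669 CPM (-2.39), but few cells carried them, 14 and 21 for Ccl5, and single cells held 31.9% and 24.8% of its UMIs. Ccl24 had 1 UMI in the library labelled Otud1-/- and 176 in WT, spread over 4 cells. The gene on the higher side was Ccl2, which draws monocytes, at 141 and 55.4 CPM (1.34). Il1b stood at 2929 and 4270 CPM (-0.54), within 1.5-fold, and was found in 40 of 46 and 44 of 47 cells, and Tnf at 120 and 258 CPM (-1.11), found in 17 and 11 cells. Of 13 regulators of the NF-kB pathway 5 were lower and 0 higher, with a median of -0.48, among them Nfkbiz at 151 and 346 CPM (-1.19) and Rel at 285 and 623 CPM (-1.13). Over all chosen cells 0 of these 13 genes passed 1.5-fold in either direction, with a median of -0.04. Of all genes measured there, 9.53% passed upward and 7.44% downward.

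The study's title speaks of protein transport in neutrophils, and such genes were looked up here through a list of 37 Rab and SNARE genes. Over all chosen cells 2 of 26 measured genes passed 1.5-fold upward in the library labelled Otud1-/- and 0 downward, with a median log2 ratio of 0.27 beside 0.04 for all genes; the 2 were Rab1a, a GTPase of transport from the endoplasmic reticulum, at 151 and 87.0 CPM (0.79), and Rab2a, of the same route, at 204 and 128 CPM (0.67). Over all genes 9.53% passed upward. In the class 5 of 25 were higher, a share below the 21.8% over all genes, and 0 lower, with a median of 0.10 beside 0.16, and Rab1a stood at 194 and 87.7 CPM (1.14). Of the OTU deubiquitinases, Otub1 stood at 69.8 and 56.8 CPM over all chosen cells (0.29) and Tnfaip3, which encodes A20, at 230 and 221 CPM (0.05) and at 194 and 337 CPM in the class (-0.79).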

How the data were processed

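Droplet 3′ single-cell libraries of gingival immune cells, 1 per genotype, were analysed from their filtered gene-by-barcode matrices. Per the file headers, the deposited values are raw UMI counts written by Cell Ranger 6.0.1, for 32285 genes, and the submitters' processing notes name Cell Ranger 5.0.0, Seurat 3.2.3 and mm10. Whether animals were pooled is not given in the sources used here, and no cell annotation was used.

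Barcodes with under 200 genes or over 15% mitochondrial UMIs were removed, 104 and 1152 in the library labelled Otud1-/- and 31 and 475 in WT. Doublets were scored against 2 simulated pairs per cell, marked at 0.8% per 1000 barcodes (450 and 1355 cells) and kept. Counts were summed per cell group and scaled to CPM, and log2 ratios used a prior of 0.5 CPM, with exact conditional intervals. Shares have Clopper-Pearson intervals. The arithmetic was checked on simulated sums that held counting error only, with planted changes larger than 1.5-fold. For the comparison of the libraries, 100.0% of 198 measured changed genes were recovered and 0.958% of unchanged genes passed 1.5-fold. The simulation held no variation between cells, classes or animals, so it does not gauge false calls in the real libraries. Python 3.11.15, numpy 2.4.6, pandas 2.3.3, scipy 1.17.1 and scikit-learn 1.9.0 were used.

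Genes named by size were the 12 highest and 12 lowest ratios in which no cell held over 25% of a library's UMIs or, against compared cells, those with the same direction in both libraries. Genes of the selection, markers and described lists were named too. The cells and gene lists were chosen with earlier results of these data known, and the marker classes after the mixture was seen.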

Additional observations from a re-analysis of the deposited data

How the results depend on the processing

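The difference in share, 0.157 percentage points, was -0.206 and -0.00907 with cells thinned to 1000 and 2000 UMIs. With a minimum of 3 Cfb and Cxcl9 UMIs it was -0.0784. The intervals of these negative differences included 0. The difference was 0.627 at most 5% mitochondrial UMIs and 0.957 among cells with Y-linked and no Xist UMIs. Within the monocyte/macrophage class it was 8.17, and 6.49 and 5.50 there when thinned. Genes higher and lower between the libraries, 268 and 209, numbered 80 and 44 at a mean of at least 200 CPM, 2936 and 3718 with no minimum, 573 and 105 among cells with Y-linked and no Xist UMIs, 436 higher as a mean over cells and 514 higher in the class, where 9 gene lists, against 16, had a median above all genes. Against C1q-positive cells, at least 200 CPM gave 9 higher and 8 lower in the library labelled Otud1-/- and 14 and 14 in WT, the mean over cells 66 higher in the library labelled Otud1-/-, at least 10 Cfb and Cxcl9 UMIs 81 lower in WT, and the class 183 higher and 20 lower in the library labelled Otud1-/- and 136 higher in WT. Against monocytes, at least 200 CPM gave 38 and 14 in the library labelled Otud1-/- and 33 and 33 in WT, and the class 119 lower in the library labelled Otud1-/- and 250 higher in WT. Among cells with Y-linked and no Xist UMIs 4 named genes reversed, with log2 ratios of 0.24 for Procr, 6.10 for AC149090.1, 1.10 for Gpr171 and -0.24 for Ptpn2. The cause of these changes was not tested, beyond the smaller or larger number of genes and cells that a setting admits. The other 79 summary values under alternatives kept their direction or stayed within 1.5 times. The class settings were chosen after seeing the data. No paired analysis was possible because each genotype has 1 library. Depth limits WT most, where the median cell described had 4206 UMIs.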
